A study of Mus musculus with 121 samples.

Results

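The proteasome is the protease of the cytosol and nucleus that destroys ubiquitin-tagged proteins. Its core particle is a barrel of outer rings of alpha subunits, which gate the entrance, and inner rings of beta subunits, 3 of which carry the peptide-cutting sites. A regulatory particle sits on the barrel and recognises ubiquitin, removes it and unfolds the substrate with a ring of 6 ATPases, and dedicated chaperones help to build both particles. When proteasome activity is lost, cells raise the subunit mRNAs together through the transcription factor NRF1 (gene Nfe2l1). The genes described here are the mouse protein-coding genes named Psma, Psmb, Psmc, Psmd, Psme, Psmf or Psmg followed by a number, without Psmb8 and Psmb9 and without pseudogenes, that had at least 1 CPM (counts per 1000000) in at least 3 libraries. The rule named 48 genes, and 46 of them passed, of 13292 genes tested in all. Psma8, an alpha subunit of the testis, and Psmb11, the catalytic subunit of the thymus, did not pass, each with 1 CPM or more in 1 library. Of the 46 genes, 44 encode subunits, assembly chaperones, activators or an inhibitor. The other 2 took part by name only: Psmc3ip, a meiotic recombination factor, and Psme2b, a copy of Psme2, were near 1.38 and 1.56 CPM.

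The cells were immortalized mouse-ear fibroblasts with the PER2::LUC sv knock-in (a luciferase reporter fused to a clock protein), used at passage P25, so that every group is this 1 line. They received 3 daily cycles of medium H (high glucose and insulin) and medium L (low glucose and insulin): H for 12 h and then L in HL, the opposite order in LH, and H throughout in HH. All cells were then left in free running for 12 h, and RNA was taken at 6 collections 4 h apart and sequenced from the 3′ ends of transcripts (3′DGE) in 21 HL, 22 LH and 19 HH libraries, 2 to 4 for each treatment and collection. The sample titles also carry an hour that does not follow this order. It reads 20, 12, 4, 8, 12 and 16 h for collections 1 to 6 of HL and HH, and 20, 12, 16, 20, 12 and 16 h for those of LH. Time here is the collection number, with 4 h between collections as the study describes, and every rhythm result rests on that order. The study's methods describe its replicates in general as independent biological experiments, while the labels do not say how the libraries of a group relate, and p-values measure the spread between these libraries. The question was whether the timing of feeding-like cycles alters levels or daily rhythms.

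Library totals were 104912 to 11619095 counts (median 5825881). The library of 104912 counts, replicate 2 of the second LH collection, lies far under the next lowest (2136819). It reads 0 for Psmb2, Psme2, Psmg1, Psmg4, Psmc3ip and Psme2b. For 40 libraries the sample title and the number of the library point to different samples or to none. By number 35 of them have another name and 5 are not listed. Most of the 35 also change treatment by number, from HL to LH or from LH to HL. The 40 include no HH library and no HL library of the first collection. Groups follow the titles, and results of LH and of the later HL collections rest on them. Values by library number are given for Psmd4, Psmd5 and Psmd6 beside their results. Fibroblast markers summed to 17890 to 40980 CPM in every library. Most of this came from Col1a2, Col1a1 and S100a4 (means 14960, 6785 and 5457 CPM), while Fap was at 0 in 32 libraries. Those of keratinocytes, melanocytes and adipocytes reached at most 4.57, 4.63 and 10.8 CPM. Endothelial markers summed to 22.9 to 269.7 CPM, nearly all from Kdr (mean 172 CPM), while Cdh5 was at 0 in 49 libraries and Pecam1 in 33. Cartilage markers summed to 294 to 1129 CPM, nearly all from Sox9 (mean 520 CPM), while Col2a1 was at 0 in 48. Immune markers stayed at or under 3.25 CPM in HL and HH and reached 76.2 CPM in LH, through Ptprc in the library of 104912 counts.

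The 4 upstream stretches that follow show the regulatory letters that were searched in these genes, 2 for catalytic subunits and 2 for members that results turn on. They are RefSeq sequences of GRCm38.p6, 5′ to 3′ on the strand of the gene, cut where an annotated exon begins, with the searched letters in capitals. Psmb5 lies at chr14:54618023-54618245 (minus strand) and Psmb6 at chr11:70525107-70525356 (plus strand). Each holds 1 antioxidant response element, TGACNNNGC on either strand, the element read by NRF1 and its relatives. Psmd4 lies at chr3:95042615-95042864 (minus strand) and holds 1 CCAAT box on the opposite strand. Psmd5 lies at chr2:34870963-34871107 (minus strand), inside the span that GENCODE gives to the gene, and holds 2 copies of the palindrome TCTCGCGAGA, a motif taken from this sequence after it had been seen.
Psmb5: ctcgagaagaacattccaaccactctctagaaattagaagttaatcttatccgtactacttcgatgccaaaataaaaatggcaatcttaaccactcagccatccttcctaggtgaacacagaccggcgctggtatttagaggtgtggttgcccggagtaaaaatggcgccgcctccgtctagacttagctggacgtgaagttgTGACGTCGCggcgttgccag
Psmb6: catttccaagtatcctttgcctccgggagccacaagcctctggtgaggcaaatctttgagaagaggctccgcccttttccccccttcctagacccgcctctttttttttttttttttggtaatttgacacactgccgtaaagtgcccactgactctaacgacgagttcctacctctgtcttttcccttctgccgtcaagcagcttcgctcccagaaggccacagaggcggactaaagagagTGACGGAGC
Psmd4: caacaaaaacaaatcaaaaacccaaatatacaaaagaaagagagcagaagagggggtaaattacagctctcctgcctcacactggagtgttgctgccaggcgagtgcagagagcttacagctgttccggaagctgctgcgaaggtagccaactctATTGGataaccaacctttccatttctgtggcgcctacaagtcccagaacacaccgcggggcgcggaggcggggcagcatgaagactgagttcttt
Psmd5: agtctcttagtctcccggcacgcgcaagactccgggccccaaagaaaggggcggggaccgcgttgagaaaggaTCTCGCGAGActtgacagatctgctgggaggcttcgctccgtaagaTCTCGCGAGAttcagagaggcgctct

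Of the 46 genes, 39 had a sequence in the RefSeq table. In the 250 bases before their start, 5 of the 39 (12.8%) held the antioxidant response element, beside 11.5% of 27018 genes. These were Psmb5, Psmb6, the ATPase gene Psmc6, the lid gene Psmd12 and the chaperone gene Psmd9. The CCAAT box stood before 13 of the 39 (33.3%) and 37.5% of all genes. The E box CACGTG, which clock activators bind, stood before Psma4, Psmb10, Psmd9 and Psme3, 4 of the 39 (10.3%), beside 6.86% of all genes. The palindrome stood before Psmd5 alone among the members (2.56%) and before 0.448% of all genes. Motifs do not overlap in the 4 printed stretches, and a match is a description of letters only.

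The genes were abundant and even. Their summed mRNA was 5206 to 6875 CPM over the 62 libraries (median 6269), less than 1% of all counts in each. It was 6265 ± 281.1 CPM in HL (SD, n = 21), 6218 ± 340 CPM in LH (n = 22) and 6144 ± 417 CPM in HH (n = 19), so that the ranges of the treatments overlapped. CPM is a share of the counts of a bulk sample, so that the amount of mRNA per cell is not known. Since 3′DGE counts transcript ends, CPM was not divided by length, and levels of different genes are compared on that scale with the reservation that priming and unique alignment differ between genes. Copies of Psmb5, Psmb6, Psmb7 and Psme2 exist in the genome, and reads that fit both a gene and its copy could be lost, so that the levels of these 4 genes are uncertain.

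The alpha ring is made of 7 subunits in equal numbers, but its mRNAs differed 14.6-fold, from 23.0 CPM for Psma5 to 336 CPM for Psma7 (means over 62 libraries). The 8 beta genes spanned 21.5-fold. Psmb1, a structural beta subunit, had the highest mean (487 CPM) and Psmb2 the lowest (22.6 CPM). Of the 3 constitutive catalytic subunits, Psmb6 (caspase-like site) had a mean of 215 CPM, Psmb7 (trypsin-like site) 135 CPM and Psmb5 (chymotrypsin-like site) 33.8 CPM. The lowest Psmb6 value, 131 CPM, lay above the highest Psmb5 value, 56.6 CPM. Psmb10, which replaces Psmb7 in immunoproteasomes, was at 44.3 CPM, and its partners Psmb8 and Psmb9, which the rule leaves out, were at 8.14 and 4.82 CPM.

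The 6 ATPases of the unfolding ring spanned 7.98-fold, from 59.8 CPM for Psmc4 to 477 CPM for Psmc1. Among 11 genes of the lid and base, Psmd7, the partner of the deubiquitinating subunit, was highest (497 CPM) and Psmd14, the enzyme that cuts ubiquitin off, lowest (54.5 CPM). Psmd4, a ubiquitin receptor, had a mean of 358 CPM. The 7 assembly chaperones were the lowest class, with 7.12 CPM for Psmg4, 7.93 for Psmg2 and 12.1 for Psmg1, which act on the alpha ring, and at most 45.6 CPM for Psmd5, which acts on the ATPase ring. Psme1, a component of the PA28 activator, was at 219 CPM and its partner Psme2 at 29.8 CPM. The activators Psme3 and Psme4 were at 35.6 and 94.7 CPM, and the inhibitor Psmf1 at 31.3 CPM.

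**Figure D1:**
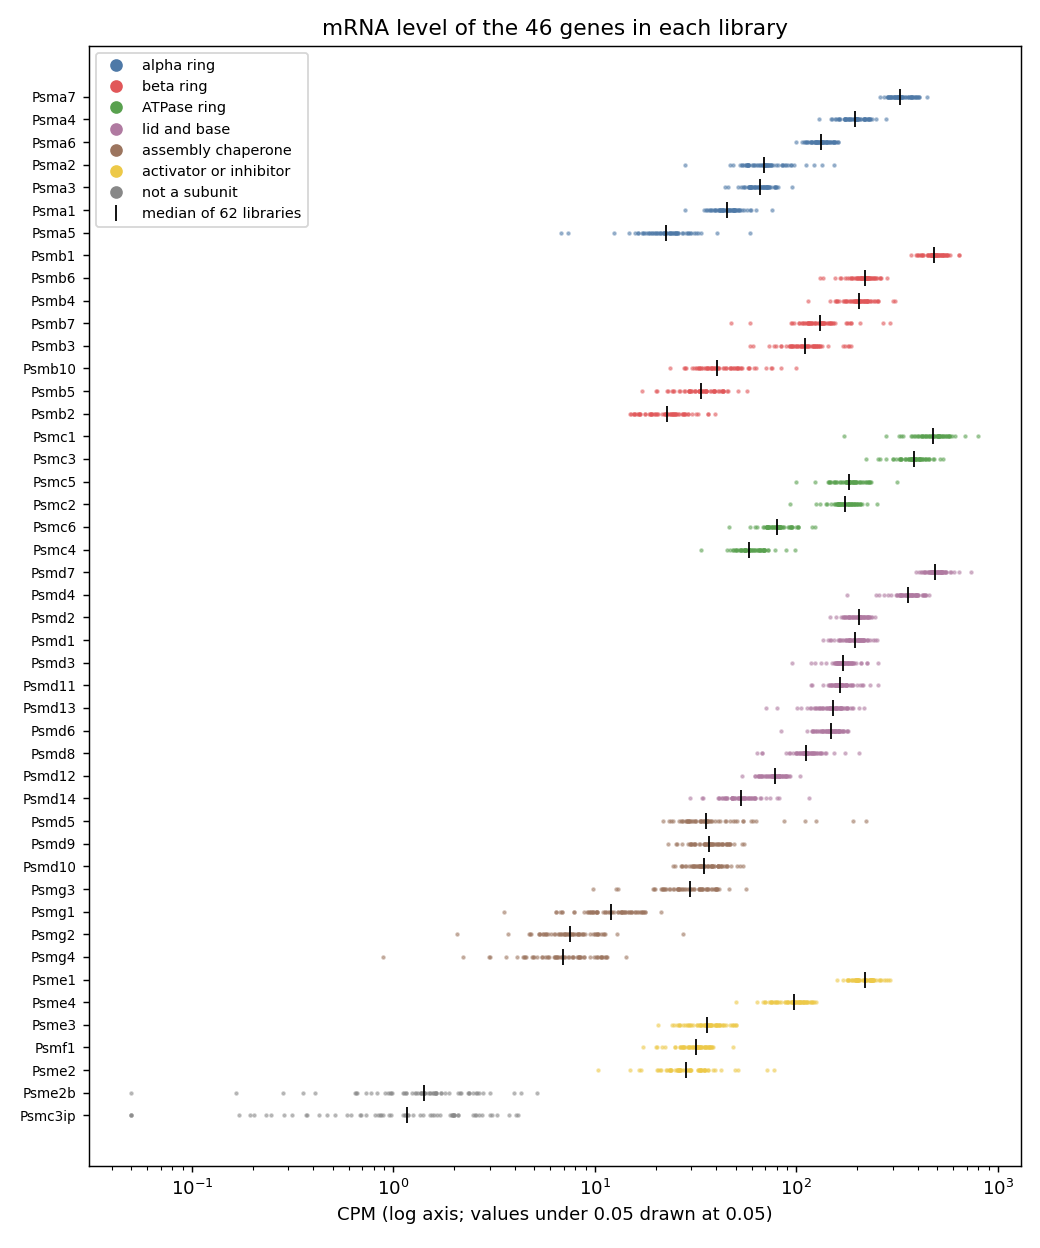
mRNA level of each of the 46 genes in the 61 libraries with at least 1000000 counts (points, CPM on a log axis), coloured by role, with the median of 62 libraries as a black bar. Levels within each ring spread over several-fold to 21.5-fold, while most genes vary little between libraries, and Psmd5 has single libraries far above its median of 35.6 CPM.

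Most members varied less between libraries than other genes did. Over the 61 libraries with at least 1000000 counts the coefficient of variation had a median of 17.0% for the 46 genes and 30.3% for all 13292, and 38 of the 46 lay under the median of all. Their median mean level was also higher, 87.8 against 15.4 CPM, and counting error is smaller at higher levels. Psmd2, a scaffold of the base, was the most even (10.4%), followed by Psma6 (10.9%), Psmb1 (11.3%) and Psmd7 (11.5%). The least even of the 44 proteasome genes was Psmd5 (77.6%), followed by Psmg2 (41.3%).

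The first comparison asks whether the order of media alters the level over all collections. In HL, LH and HH the mean of Psmb5 was 32.8 ± 6.61, 34.3 ± 8.49 and 34.4 ± 8.21 CPM (SD, n = 21, 22 and 19). That of Psmb6 was 219 ± 22.1, 217 ± 40.4 and 209 ± 27.3 CPM, and that of Psmb7 140 ± 45.9, 137 ± 40.4 and 129 ± 28.5 CPM. These constitutive catalytic genes differed by less than the spread between libraries. In the edgeR fit the HH to HL difference was 0.02 for Psmb5 (95% interval -0.18 to 0.23, log2), -0.12 for Psmb6 (-0.26 to 0.01) and -0.16 for Psmb7 (-0.42 to 0.11). Psmb10 was at 48.3 ± 18.2, 42.5 ± 13.9 and 41.8 ± 11.6 CPM, with a wider interval of -0.56 to 0.03 for HH against HL. Psme1 and Psme2, the PA28 pair, had intervals of -0.19 to 0.06 and -0.22 to 0.36 in that comparison.

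Psmd4 was the 1 member with an unadjusted p under 0.01 over the 3 treatments and under 0.05 in a comparison of 2 of them (edgeR). The thresholds follow the study's, but the study used a multiple comparison test for the second, which the unadjusted p here is not. It lies on chromosome 3 (95032694 to 95042614, minus strand, GRCm38). Its lowest, median and highest values were 313, 361 and 455 CPM in HL, 248, 353 and 437 CPM in LH, and 179, 360 and 427 CPM in HH. The 3 medians nearly coincide and the ranges overlap. Under the lowest HL value lay 4 LH libraries, 3 of them of the second collection (248, 271.2 and 305 CPM), and 3 HH libraries, among them replicates 2 and 3 of the sixth collection (179 and 256.6 CPM). Psmd4 was lower by 0.16 in LH than in HL (log2, SE 0.065, adjusted p = 0.736, edgeR) and lower by 0.20 in HH (SE 0.067, adjusted p = 0.503). It was the 1 member called of 46 in LH against HL, where 1.16% of all genes were called, and in HH against HL, where 1.2% were. All such calls that were lower took 0.73% and 0.745% of genes, and all that were higher 0.429% and 0.459%. In HH against LH no member was called (0.91% of all genes), and 1, Psmd7, was lower at an unadjusted p under 0.05 in edgeR (2.5% of all genes) while none was higher (2.73%). After Benjamini-Hochberg adjustment edgeR called neither a member nor any other gene in the 3 comparisons, and DESeq2 called Psmd4 at the same unadjusted thresholds (1.26% of all genes in LH against HL and 1.22% in HH against HL). The call was lost in most alternatives, and with names by library number the LH to HL difference turned to 0.10 higher and the HH to HL difference to -0.09 (log2).

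Over all collections the smaller differences leaned downward in HH. Of the 46 members 32 had a lower fitted level in HH than in HL, with a median of -0.04 (log2) beside 0.00 for all genes, and 25 were lower in LH, with a median of -0.04 beside 0.00. At an unadjusted p under 0.05, 6 members were lower in HH than in HL (4.23% of all genes) and none was higher (3.19%). These were Psma6, Psmb1, Psmc5, Psmd4, Psmd13 and Psmf1, from the alpha, beta and ATPase rings, the lid and base, and an inhibitor. The largest of these differences were -0.24 for Psmd13 (SE 0.095, adjusted p = 0.586, edgeR) and -0.22 for Psmc5 (SE 0.085, adjusted p = 0.594), neither of which passed. In LH against HL the same count was 3 lower (3.22% of all genes), Psmd4, Psme4 (a nuclear activator) and Psmf1, and 0 higher (2.47%). Psmd13 had 70.8, 153 and 218 CPM as lowest, median and highest over all libraries, Psmc5 100, 183 and 314 CPM, Psmf1 17.3, 31.9 and 48.6 CPM, and Psme4 50.2, 96.8 and 125 CPM. The lowest values of Psmd13 and Psmc5 both came from replicate 2 of the sixth HH collection. The next lowest in HH, 100 and 124 CPM, came from replicate 3 of that collection. The highest Psmc5 value came from replicate 4 of the sixth HL collection. The comparisons share the HL libraries, so that their directions are not independent. At the first collection alone the lean was the opposite, with 32 of 46 members higher in HH than in HL and a median of 0.07 beside 0.00 for all genes.

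With groups by title the data bound larger changes. The intervals do not take in the doubt over library names, and none by library number are given. The 95% interval lay within 0.5 (log2) of no difference for 44 of 46 members in LH against HL, the exceptions being Psmc3ip and Psme2b. It lay within that limit for 41 in HH against HL, where Psmb10, Psmd5 and Psmg2 exceeded it as well, and for 42 in HH against LH.

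**Figure D2:**
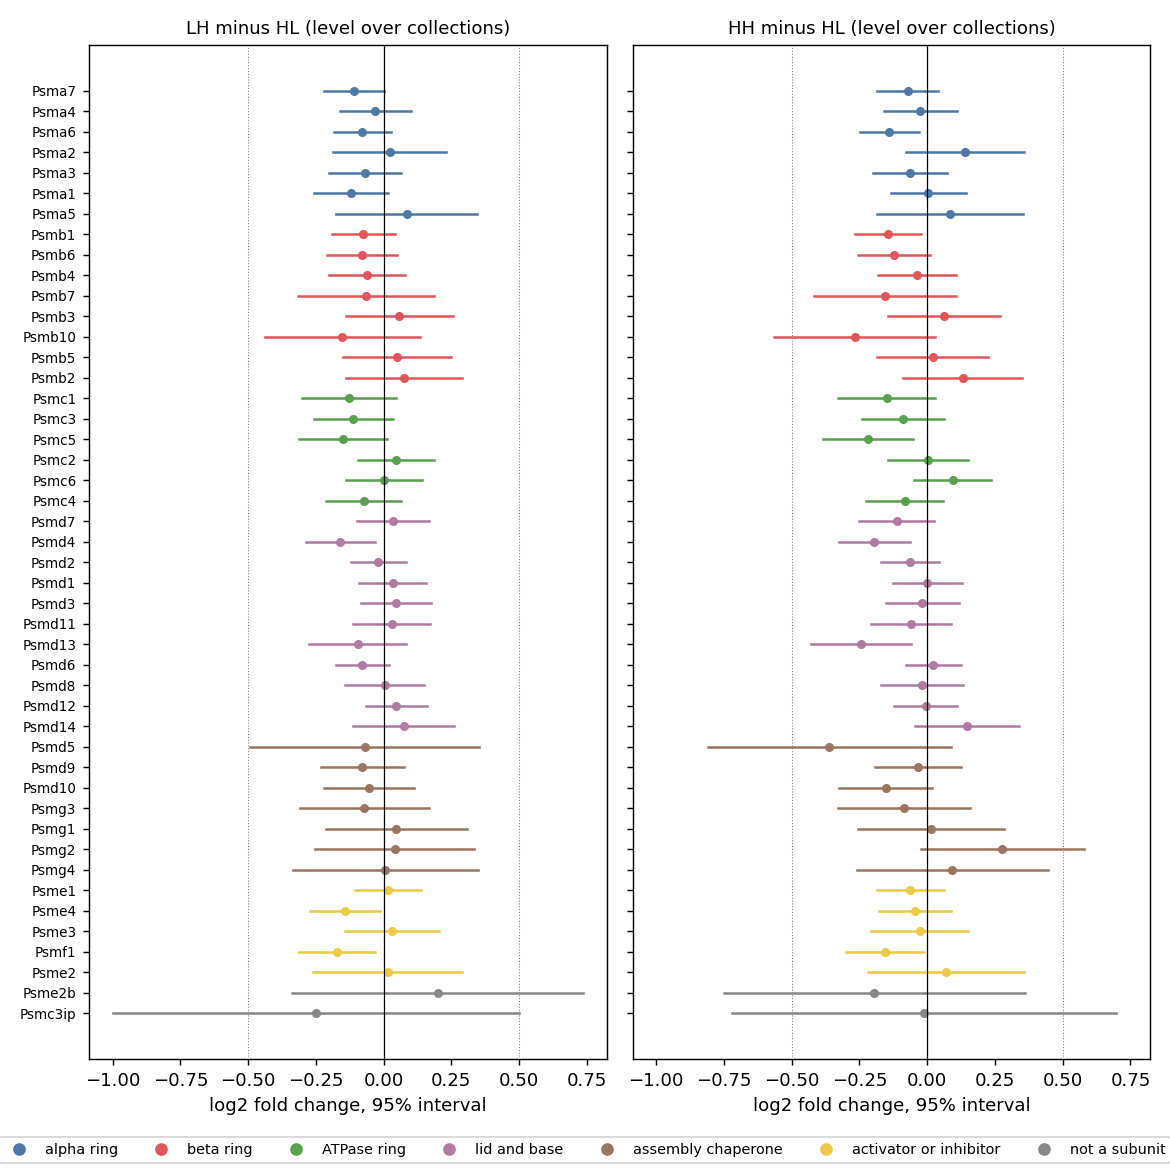
Log2 difference in level of each gene between LH and HL (left) and HH and HL (right) from the edgeR fit, with 95% intervals and dotted lines at 0.5 either side of 0. In HH 32 of 46 points lie left of 0, and nearly all intervals end inside the dotted lines.

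The second comparison asks whether the members had a daily rhythm. JTK_CYCLE, a rank test for a 24 h curve, called no member in HL (0.466% of all genes), Psmd6 in LH (0.865% of all genes) and no member in HH (1.22% of all genes) at an unadjusted p under 0.01. At p under 0.05 it gave 2, 3 and 0 members (2.37%, 3.73% and 4.15% of all genes), and after adjustment none, with 1 other gene in HH (0.00752%). A cosine fit in edgeR gave 1, 4 and 8 members at an unadjusted p under 0.05 (5.21%, 9.8% and 9.2% of all genes). At p under 0.01 it gave 0, 1 (Psmd6) and 1 (Psmg2), beside 1.12%, 3.27% and 2.87% of all genes. Psma2 (exact p = 0.0277) and Psmg4 (0.0342) were the 2 with the smallest JTK p in HL, and Psma7 and Psmd9 (both 0.102) in HH.

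Psmd6, a lid subunit, lies on chromosome 14 (14112174 to 14120984, minus strand). In LH its mean was 131 ± 16.2 CPM at the first collection (n = 3), 113 ± 28.2 CPM at the second (n = 3), 155 ± 9.30, 166 ± 10.6 and 143 ± 11.1 CPM at the next 3 (n = 4 each) and 134 ± 20.3 CPM at the last (n = 4). The fitted peak was at 12 h (exact JTK p = 0.00648, adjusted p = 0.926). Leaving out any 1 of the 4 replicate numbers of LH moved that p to between 0.0118 and 0.0593, so that the call was lost each time. At the fourth collection, the highest, the libraries were at 179, 155, 161 and 171 CPM, and at the second, the lowest, at 83.5, 114 and 140 CPM. The 2 groups did not overlap, but they were picked as the extremes after the means were seen, which tests nothing. The value of 83.5 CPM comes from replicate 1, the library with the most Psmd5 of all. The value of 114 CPM comes from the library of 104912 counts, without which the JTK p was 0.00983 (exact). In HL the means of the 6 collections ran from 131 to 160 CPM without a call (exact JTK p = 1), and in HH from 129 to 170 CPM. For the rhythm of Psmd6 in HL against that in LH edgeR gave an unadjusted p of 0.00166 and an adjusted p of 0.353, which did not pass. By library number Psmd6 was not called (exact JTK p = 1), and Psma7, an alpha subunit, was called in LH in its place (1.24% of all genes).

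No member passed the adjusted threshold for a difference in rhythm between HL and LH, HL and HH or LH and HH in edgeR or in DESeq2. In edgeR 9, 2 and 7 genes of all passed (0.0677%, 0.015% and 0.0527%), and in DESeq2 10, 19 and 5 (0.0753%, 0.152% and 0.0377%). At an unadjusted p under 0.05 there were 4, 10 and 7 members (7.21%, 9.91% and 9.61% of all genes). In edgeR the smallest p values were those of Psmd6 between HL and LH, Psmg2 between HL and HH (adjusted p = 0.285) and Psmb2 between LH and HH (adjusted p = 0.337).

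**Figure D3:**
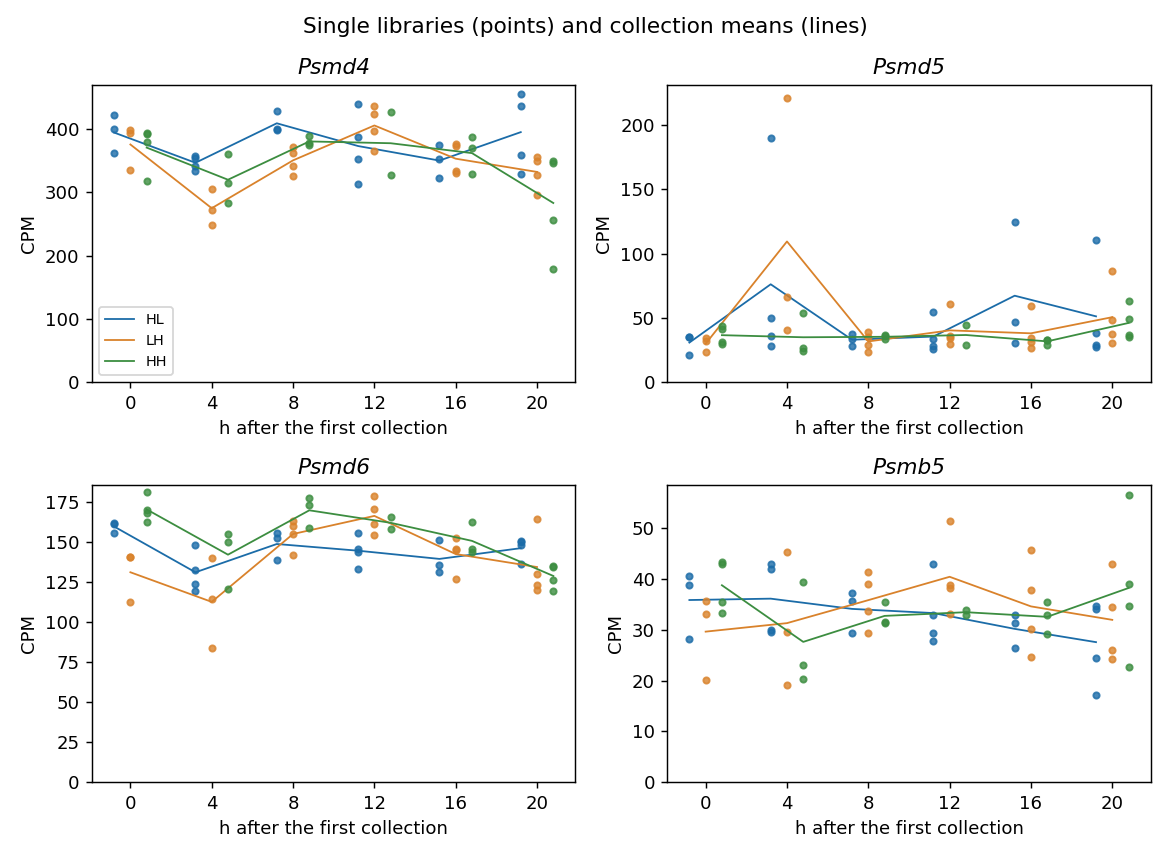
CPM of Psmd4, Psmd5, Psmd6 and Psmb5 in single libraries (points) against hours after the first collection, by treatment, with lines through collection means. Psmd6 in LH is lowest at 4 h and highest at 12 h, and the means of Psmd5 are lifted by single libraries of up to 221 CPM.

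The third comparison asks for any difference among the 6 collections of a treatment. It called no member in HL (0.301% of all genes), Psmd5 in LH (2.93%) and no member in HH (0.293%) at an adjusted p under 0.05 in edgeR. DESeq2 called 0, 3 and 0, adding Psmd1 and Psmd6 in LH. Of all genes with an adjusted p it called 0.948%, 5.89% and 1.23%. At an unadjusted p under 0.05 edgeR gave 4, 8 and 7 members (8.98%, 16.9% and 8.61% of all genes).

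Psmd5, a chaperone that holds ATPase subunits during assembly of the base, lies on chromosome 2 (34849734 to 34874968, minus strand). In LH it was at 221, 66.7 and 40.7 CPM in the 3 libraries of the second collection, where the value of 66.7 comes from the shallow library, and its means at the other collections ran from 30.1 to 50.7 CPM. The adjusted p was 0.0204 (edgeR). Without the library of 221 CPM, replicate 1 of that collection, the adjusted p was 0.869, an alternative chosen after seeing the data, so that 1 library decided the call. HL held libraries of the same kind: 190 CPM in replicate 3 of the second collection, beside 36.2, 50.4 and 28.4 CPM in the others, 125 CPM in replicate 2 of the fifth, and 111 CPM in replicate 3 of the sixth. HH held none, with a range of 24.4 to 63.3 CPM. The difference in level between HH and HL was -0.36 (SE 0.228, edgeR, 95% interval -0.81 to 0.09).

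Other members were also higher in the libraries where Psmd5 was high. Over the 61 libraries Pearson's r with Psmd5 was 0.75 for Psmb7, 0.71 for Psmb10 and 0.70 for Psmd11, a lid scaffold, while it was -0.52 for Psme4 and -0.46 for Psmd6. Psmb10 was at 84.2, 99.4, 74.8 and 75.9 CPM in the 4 libraries with the most Psmd5, above its median of 40.4 CPM. Chosen after their values were seen, the genes most like Psmd5 among 9271 with a mean of at least 5 CPM were Cryab (a small heat shock protein, r = 0.96), Nudt3 (0.94), Ypel5 (0.93), Sgk1 (a stress- and hormone-induced kinase, 0.93), Sec14l1 and Stc1 (a secreted glycoprotein, both 0.92), with Ereg and Phf6 next. In all 20 genes had r over 0.9 with Psmd5 and 5 had r under -0.9. No gene reached 0.9 with Psmd4, Psmd6 or Psmb10, whose closest were Chmp1a (0.84), Lgals1 (0.77) and Ifitm3 (0.80). These correlations describe 61 libraries of 1 cell line that share depth and totals.

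The libraries with high Psmd5 had no common replicate number by title. The library second highest in Psmd5 (190 CPM) and the one of 104912 counts have no listed library number and drop out of what follows. Of the 57 libraries with a listed number, the 9 with the most Psmd5 are all replicate 4 by number, and 2 of the 9 are replicate 4 by title. By number the 15 libraries of replicate 4 were at 33.9 to 221 CPM (median 54.4), and the other 42 at 21.7 to 49.4 CPM (median 31.7). Within HH, where both namings agree, replicate 4 was at 33.9 to 63.3 CPM in 5 libraries and the others at 24.4 to 49.4 CPM in 14. Psmb10 followed, with a median of 57.8 CPM in replicate 4 by number and 36.6 to 40.5 CPM in the others. By number Psmd5 did not differ over the collections of LH (adjusted p = 0.386, edgeR). What replicate 4 shares, and its part in these values, was not tested.

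**Figure D4:**
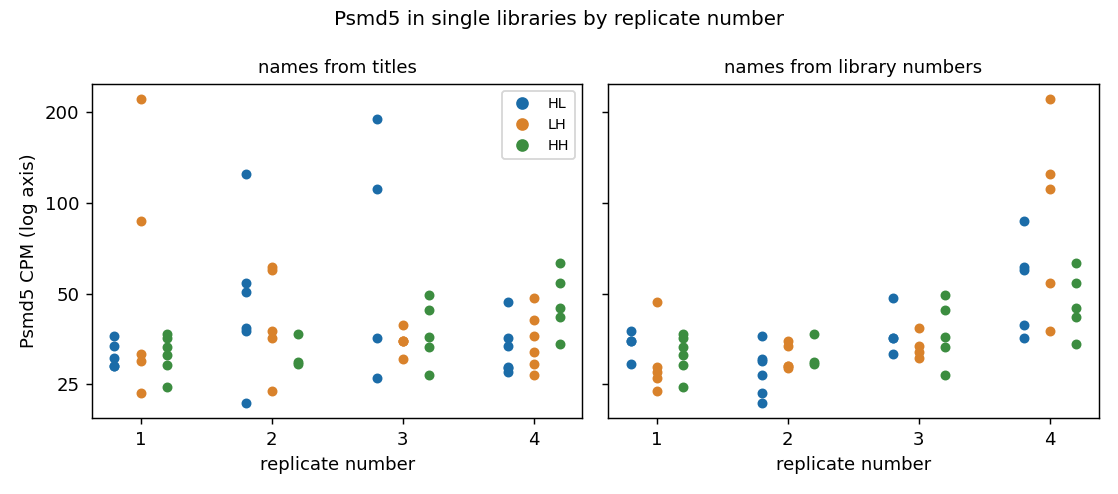
Psmd5 CPM (log axis) in libraries of at least 1000000 counts against the replicate number, taken from sample titles (left) or from library numbers (right), coloured by treatment. On the right the highest 9 libraries all stand at replicate 4, and on the left they spread over replicates 1 to 4.

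The fourth comparison sets HH, the treatment without L medium, beside HL at the first collection, where both namings agree. No member passed an adjusted p under 0.05 in edgeR or DESeq2, no member had an unadjusted p under 0.05 in edgeR (2.4% of all genes, 1.23% higher and 1.17% lower), and of all genes 0 passed the adjusted threshold in edgeR and 1 in DESeq2. Psma2 had the smallest p: it was at 52.6, 69.9 and 64.4 CPM in HL and at 89.1, 76.1, 94.3 and 85.8 CPM in HH. These values did not overlap, and the difference was 0.43 (log2, SE 0.248, adjusted p = 1, edgeR). The 95% interval lay within 0.5 for 24 of 46 members, so that the intervals of the others reach changes of that size.

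The fifth comparison sets the third HH collection against the sixth, 12 h later. No member passed the adjusted threshold in edgeR (0.0226% of all genes) or in DESeq2 (2.6% of the 923 genes that it gave an adjusted p, 16 of them members). In edgeR 11 of 46 had an unadjusted p under 0.05 (10.5% of all genes). Of these Psmc1, Psmd4 and Psmd6 were higher at the third collection (4.37% of all genes), and Psma2, Psma5, Psmb2, Psmd8, Psmd14, Psme2, Psmg2 and Psmg3 lower (6.13%). Psmb2, a structural beta subunit, was at 16.6, 24.3 and 21.4 CPM in the third and at 29.0, 36.4, 36.3 and 22.8 CPM in the sixth (difference -0.70, SE 0.25, adjusted p = 0.322). Psma5 was at 23.5, 22.1 and 18.5 CPM and at 23.4, 33.7, 58.8 and 21.7 CPM. The 2 collections overlap for both genes, and replicates 2 and 3 of the sixth are the highest. Psmc1 ran the other way, with 554, 497 and 580 CPM in the third collection and 532, 279.4, 172 and 494 CPM in the sixth, where the same 2 libraries are the low ones. Psmg2, a chaperone of the alpha ring, was at 7.45, 8.33 and 7.03 CPM and at 6.75, 27.4, 12.8 and 4.70 CPM.

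Over the 1035 pairs of members the median r was 0.18 across the 61 libraries, with 144 pairs above 0.5 and 19 below -0.5. Pairs within the beta ring had a median of 0.48 and pairs within the ATPase ring 0.06, so that subunits of 1 ring did not always vary together. The closest pair was Psmd4 with Psmc5 (r = 0.81), and the most opposed Psmc1 with Psma5 (r = -0.65). Psmc1 also varied with Psmd4 (0.71), Psmc5 (0.70) and Psmc3 (0.69), and against Psme2 (-0.63) and Psmb2 (-0.61). The values take in replicates 2 and 3 of the sixth HH collection. Without these 2 libraries, a choice made after the data were seen, 142 pairs were above 0.5 and 8 below -0.5 across the other 59, and the most opposed pair was Psmd6 with Psmd7 (-0.59). Psmc1 then had r = -0.54 with Psma5 and with Psmb2, -0.50 with Psme2 and 0.65 with Psmd4, and Psmd4 with Psmc5 0.71. Across all 61 libraries Psma2 varied with Psmd8 (0.78), Psmd14 and Psmb3 (both 0.77) and Psma5 (0.77). Psmb5 varied with Psmb3 (0.76) and Psmb1 (0.65), and Psmb6 with Psmd4 (0.59), Psmd6 (0.58) and Psmb1 (0.55).

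The summed mRNA of 90 ribosomal protein genes, 3.68% to 7.16% of the counts of a library, moved with the genes around Psma2. Across the 61 libraries 37 of 46 members had a positive r with that sum and 15 had r over 0.5, or 80.4% and 32.6%, beside 52.1% and 5.2% of all 13202 tested genes that are not ribosomal. These were led by Psmb4 (0.79), Psma2 (0.73), Psmd8 (0.72) and Psme2 (0.71). Members are also more abundant than most genes. Psmc1 alone had r under -0.5 (-0.52), followed by Psmd7 (-0.39) and Psmc3 (-0.35). Without replicates 2 and 3 of the sixth HH collection 12 members had r over 0.5 (3.96% of the other genes) and none under -0.5, with Psmc1 at -0.28. The ribosomal sum was highest in replicate 3 of the sixth HH collection and lowest in replicate 1 of the second. Values are shares of 1 total, which ties them to each other. Over the 46 genes r with the ribosomal sum had a correlation of -0.26 with the GC content of the last 300 bases of the transcript and of -0.22 with its length. The part of the ribosomal share in the differences above was not tested.

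**Figure D5:**
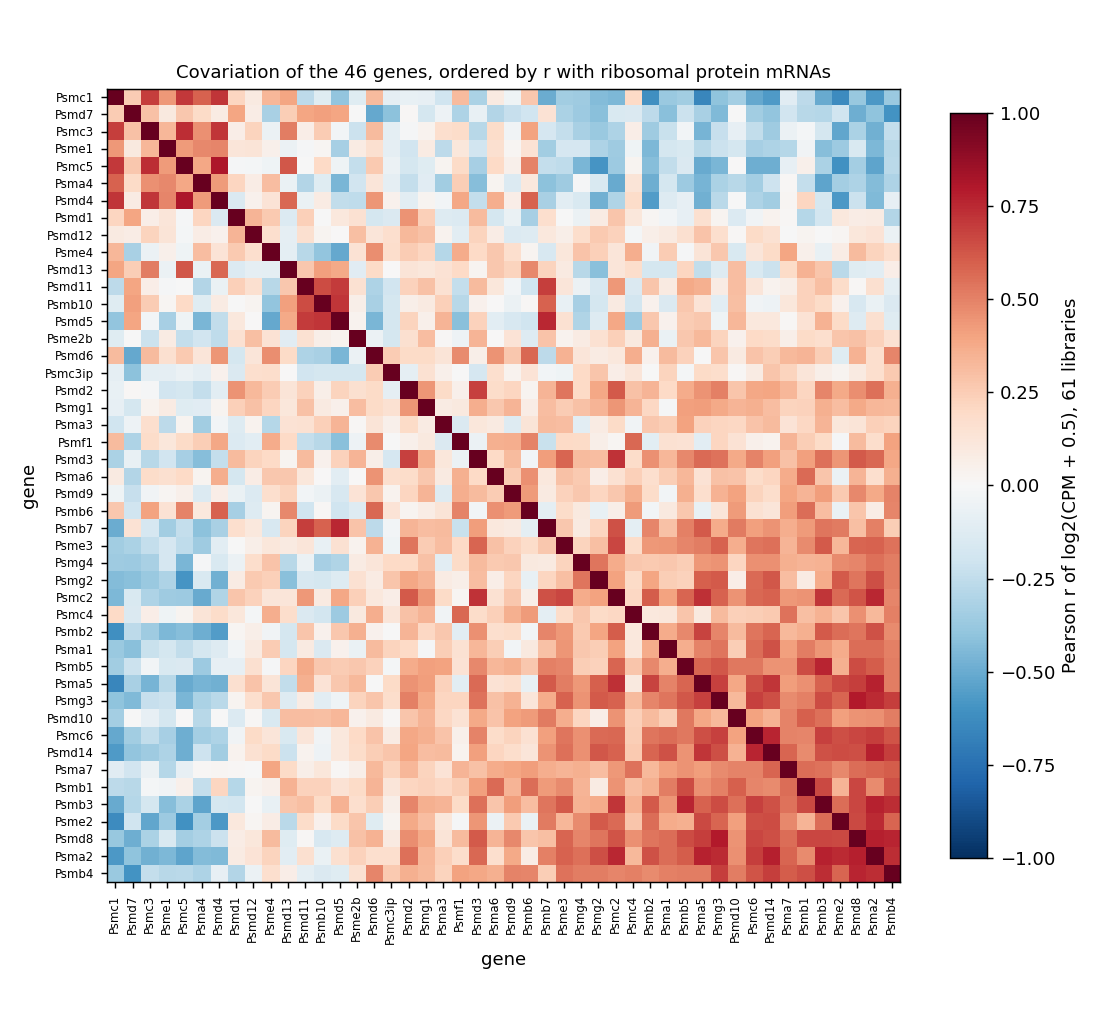
Pearson's r between each pair of the 46 genes over 61 libraries (log2 CPM + 0.5; red positive, blue negative), with genes ordered by r with the summed ribosomal protein mRNA. The genes from Psmb2 to Psmb4 mostly vary together and against those from Psmc1 to Psmd4, and Psmd5, Psmb10 and Psmd11 form a small block that Psmb7 joins.

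From a list of 31 ubiquitin genes, regulators, partners, segregase subunits and activating enzymes, 30 were tested. By the thresholds used for members, edgeR called none for levels in LH against HL, HH against HL or HH against LH (1.16%, 1.2% and 0.91% of all genes), and JTK none as rhythmic in HL, LH or HH (0.466%, 0.865% and 1.22%). By the cosine fit in HH, Sem1 and Rps27a were under an unadjusted threshold of 0.01 (2.87% of all genes), with adjusted p = 0.275 and adjusted p = 0.285 in edgeR. In edgeR 1, Pomp, differed over the collections of LH (adjusted p = 0.00931, edgeR), where 2.93% of all genes did. Pomp, the chaperone that matures the core particle, had means of 237.7 ± 47.0 CPM in HL, 219 ± 44.0 CPM in LH and 222 ± 36.9 CPM in HH. Nfe2l1, the gene of NRF1, had means of 226.3 ± 36.7, 223.9 ± 38.6 and 225.2 ± 48.9 CPM, with a difference of -0.08 (log2, SE 0.0952, edgeR) between HH and HL. The largest difference among these genes between the third and the sixth HH collection was that of Rps27a, which encodes ubiquitin fused to a ribosomal protein, at -1.11 (log2, SE 0.327, adjusted p = 0.213, edgeR), beyond that of any member and not past the adjusted threshold.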

How the data were processed

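The authors aligned the 3′DGE reads to mm10 and deposited raw read counts per gene for each sequencing run. The submitters' processing notes name bcl2fastq, STAR 2.6.0a and HTSeq 0.9.1. The 121 run tables were summed to 62 libraries (59 had 2 runs), and HTSeq's rows for reads outside genes (18.4% to 29.1% of a run) were left out. CPM is the count per 1000000 counts in genes. The names by library number come from a read summary in the study's supplement. Genes with at least 1 CPM in 3 libraries were tested in edgeR 4.0.16 (R 4.3.3) by the quasi-likelihood test with TMM scaling. Levels were fitted with terms for treatment and collection, collections with a mean for each treatment and collection, and rhythm differences with a 24 h cosine for each treatment, with Benjamini-Hochberg adjustment over all 13292 genes. DESeq2 1.42.0 was an alternative. JTK_CYCLE was rewritten in R for a 24 h period. The p called exact is that for 6 distinct collections, although the cosine curve gives some collections tied values. An alternative that took these ties into account also called Psmd6 in LH and 0 members in HL and in HH. The level, collection and JTK tests were tested on simulated data. Any member could be named with its level, and fuller values were kept for the 3 members with the smallest p in a comparison, the catalytic subunits, Psmb10 and the PA28 pair. Genes most like a member were chosen by Pearson's r on log2(CPM + 0.5). Members and gene lists were chosen with earlier results of these data known. Of 31053 gene identifiers 30934 matched GENCODE M21. Same-numbered libraries by title did not deviate together (median r 0.00287, against 7.62e-05 for other pairs), so that titles were not taken as pairs.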

Additional observations from a re-analysis of the deposited data

Results flagged for a closer look

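In groups of 4 libraries the sum of the members and 9 genes (10 measures, 90 groups) were searched for a highest or lowest library that stood far from the rest, with a gap to its neighbour above 0.829 of the range. Chance marks about 1 in 20 such groups, and 11 were marked. The sum was 5206 CPM in replicate 2 of the sixth HH collection (others 6268 to 6292), and 6875 CPM in replicate 1 of the sixth LH collection (others 5650 to 5766). Psmd5 was at 190.1 CPM in replicate 3 of the second HL collection (others 28.4 to 50.4) and at 110.9 CPM in replicate 3 of the sixth (others 27.4 to 38.3). In the first of these libraries Psmb7 was at 292.1 CPM (others 114.6 to 143.3), and in the second Psmb10 was at 75.95 CPM (others 32.0 to 36.3). Psmb7 was also at 206.4 CPM in replicate 3 of the sixth HH collection (others 135.7 to 146.0) and at 139.2 CPM in replicate 3 of the third LH collection (others 115.5 to 118.8). Psmb6 was at 250.98 CPM in replicate 4 of the fourth HL collection (others 199.2 to 203.7), Psme1 at 235.1 CPM in replicate 4 of the second HL collection (others 200.1 to 201.9), and Psme2 at 25.65 CPM in replicate 1 of the first HH collection (others 32.95 to 33.47).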

How the results depend on the processing

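Of 319 values computed under alternatives, 39 lost the threshold, 51 counts or values moved, 1 changed sign, and the others kept their direction and side of the threshold or, for counts, stayed within 1.5 times, which does not say that they hold the same genes. The 1 member called between treatments, in LH against HL and in HH against HL, became 0 with Benjamini-Hochberg adjustment, scaling by library totals, names by library number, no filter on low counts, no term for collection, or without the library under 1000000 counts. It ranged from 0 to 2 when 1 replicate number of a treatment was left out (2 without HL replicate 1: Psmc5 and Psmd4). Psmd4 in LH against HL turned from -0.16 to 0.0951 by library number. Members rhythmic in LH became 0 after adjustment and 0 to 1 with a replicate left out (Psmb3 without LH replicate 4, where Psmd6 lost its call, and Psma7 in its place by library number), and those in HL 0 to 1 (Psmd2). A cosine fit gave 1 in HH (Psmg2). Members that differed over the collections of LH numbered 3 in DESeq2 (5.89% of all genes), 3 without a filter (Psmb7, Psmd5 and Psme2, 6.05% of all genes) and 0 with library totals (1.69%). They numbered 0 by library number (1.05%), 0 without the library highest in Psmd5, and 0 to 2 with a replicate left out. Those of HL and HH became 1 each without a filter (Psmd5 and Psme2, where 3.08% and 2.4% of all genes were called). For the fits with a replicate left out the shares of all genes called were not computed, so that those member counts have no background. The causes were not tested.

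With the replicate number of the titles as a block, the count between treatments became 0 in LH against HL and 0 in HH against HL, with Psmd4 at -0.16 and -0.20 (p over the 3 treatments 0.0107, edgeR). Under the block Psmd5 stayed the 1 member that differed over the collections of LH, where 3.14% of all genes did. The cosine fit with the block gave 0 members in HH in place of 1. The other counts were 0 with and without the block, apart from the 1 member (Psmd6) of the cosine fit in LH, which both gave. By title, pairs of libraries with the same number deviated together no more often (12.8% had r over 0.1) than others (12.5%). By library number they did so more often (35.3% against 9.57%), with 75.2% for replicate 4, 22% and 25.3% for replicates 1 and 2, and 8.97% for replicate 3. With names by library number and the block together, 1 member, Psmc5, differed over the collections of LH (461 of 13198 genes in edgeR). Names by library number without the block gave 0 members (139 of 13198 genes).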
